A study of Mus musculus with 25 samples.

Results

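The genes described are those that encode voltage-gated and potassium ion channels in mouse pancreatic islets: symbols beginning with Kcn (potassium channels and their auxiliary subunits), Cacn (voltage-gated calcium channels) or Scn followed by a digit (voltage-gated sodium channels). Kcnj11, Cacna1c and Cacna1d, the pore of the ATP-sensitive potassium channel and the main L-type calcium channel pores of the beta cell, were left out of the set and are given beside it. A member needed at least 1 FPKM (a fragment count scaled to transcript length and library size) in at least 2 libraries of a table. By that rule 59 of 126 listed symbols were members in at least 1 of the 4 expression tables, 38 in every table, and 67 in none. The counts were 45 of 77 listed symbols in the HFD table, 38 of 111 in the WT table, 41 of 126 in the PBS table and 57 of 120 in the db table. The 38 members of the WT table were the same genes as the 38 that passed in every table, so these 38 can be named from libraries that enter none of the comparisons.

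Members were chosen by their FPKM in these same libraries, so their being present is no finding. In the WT table the member nearest the limit was Kcnn1 (second-highest library 1.04 FPKM) and the nearest gene outside was Cacng4 (0.96 FPKM). In the PBS table Kcnu1 (1.00 FPKM) was inside and Cacna1b (0.97 FPKM) outside. In the db table Kcnn2 (1.07 FPKM) was inside and Kcnk13 (0.99 FPKM) outside, and in the HFD table Kcnh3 (1.00 FPKM) was inside and Cacna1h (0.99 FPKM) outside. Of the channels often discussed in islets, Cacna1e (the R-type calcium channel pore), Kcna3, Kcnk13, Kcnj5 and Kcne2 passed in no table.

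Messenger RNA was read as paired ends on the BGISEQ-500, and each islet sample was pooled from 3 or more mice. Values exist for 19 libraries. The HFD table compares 2 flox/flox and 2 BcBKO libraries from mice kept for 3 months on a high-fat diet (HFD). BcBKO stands for an ablation in beta cells by Pdx1-cre. The study concerns BAF60C, a chromatin remodeling subunit that Smarcd3 encodes, and the Pdx1 promoter that drives the Cre is also active across the embryonic pancreas. In the PBS table there are 2 libraries each of CTR_PBS, KO_PBS and KO_REG3B-Fc. It is not stated which gene KO names, how PBS (the saline vehicle) or REG3B-Fc (a REG3B product, a secreted lectin) was given, or the genotype of CTR. Of the db table's 4 libraries, 2 are db_GFP and 2 db_REG3B; db is not spelled out and no vector is given, and both arms share whatever db denotes. The WT table holds 5 WT libraries with no further label. Ages were not given. Nothing says that the libraries of a group came from separate litters, or how separately their pools were made. The p-values therefore measure the spread between the libraries of a group, and whether that is the spread between mice cannot be told.

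In beta cells, closure of ATP-sensitive potassium channels depolarizes the membrane, voltage-gated sodium and calcium channels carry the action potential, and calcium entry releases insulin. Voltage-gated and calcium-activated potassium channels repolarize the cell, two-pore-domain potassium channels carry a background current that sets the resting potential, and auxiliary subunits alter the gating and surface delivery of the pores. Alpha, delta, PP, acinar, vascular and immune cells carry channel sets of their own, so a whole-islet level adds up several cell types.

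Between 10436 and 12553 genes had 1 FPKM or more in a library, and the sequencing depth was not given in the sources used here. Smarcd3 was at 2.57 and 2.55 FPKM in flox/flox HFD and at 3.11 and 2.40 FPKM in the libraries labelled BcBKO HFD, which overlap. The deleted stretch was not given, so a gene-level value does not check the ablation. Over the 6 libraries of the PBS table Smarcd3 lay between 0.75 and 1.28 FPKM, and the KO_PBS and CTR_PBS libraries overlapped. In the db table it was at 3.18 and 2.61 FPKM in db_GFP and at 1.29 and 1.61 FPKM in the libraries labelled db_REG3B (log2 change -0.62, adjusted p = 0.00225 by limma). Reg3b, the gene of the agent, stood at 667 and 634 FPKM in the control pair, rose to 1227 and 1181 FPKM without REG3B-Fc in the KO, and was at 304 and 312 FPKM with it, so it was lowest in the libraries labelled for REG3B-Fc (-2.60 against KO_PBS and -1.18 against CTR_PBS, adjusted p = 9.89e-09 and 2.95e-06). In the db table it was at 21.8 and 26.5 FPKM in db_GFP and at 10.4 and 9.98 FPKM in the libraries labelled db_REG3B (-1.09, adjusted p = 5.02e-05). The Reg3b transcript was therefore lower in both sets of libraries that carry REG3B in their label. It was also lower in BcBKO HFD, whose label does not name REG3B. There it was at 33.8 and 21.3 FPKM against 77.7 and 78.0 FPKM in flox/flox HFD (-1.59, not called by limma). Since the form in which REG3B was supplied was not given, the Reg3b level does not check the REG3B labels. Marker genes of acinar cells, which make digestive enzymes, took 6.73 to 43.0% of summed FPKM across the WT libraries, 12.7 to 32.2% in the PBS table and at most 8.89% in the HFD and db tables. The 15 beta cell markers took 28.6 to 71.8% over all libraries. In bulk RNA, fewer cells of a type and less RNA per cell cannot be told apart. Because a few very abundant transcripts move all other FPKM, changes are given after scaling each library so that its median gene matched the average library (median scaling), as log2 changes of FPKM + 1 with limma and Benjamini-Hochberg adjustment over all genes of a table, two-sided, with a threshold of 0.05. The values of single libraries are the deposited FPKM.

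Kcnk16, which encodes TALK-1, a two-pore-domain potassium channel of the beta cell, had the highest FPKM of all members in each of the 19 libraries. In the WT libraries it was at 114, 77.4, 75.2, 131 and 76.4 FPKM. It made up 26.9 to 40.0% of the summed member FPKM in the WT table, 38.2 to 44.0% in the HFD table, 37.7 to 39.4% in the PBS table and 17.5 to 19.5% in the db table. The tables were normalized separately and these shares were not tested against each other. All members together took only 0.0156 to 0.0639% of the summed FPKM of a library. Because this gene leads the set, the 250 bases before its RefSeq start are shown (RefSeq, GRCm38.p6, chr14:20269270-20269519, minus strand, 5′ to 3′), with capitals marking the letters CATCTG or their reverse complement, an E-box of the type bound by NEUROD1, searched on both strands.
Kcnk16: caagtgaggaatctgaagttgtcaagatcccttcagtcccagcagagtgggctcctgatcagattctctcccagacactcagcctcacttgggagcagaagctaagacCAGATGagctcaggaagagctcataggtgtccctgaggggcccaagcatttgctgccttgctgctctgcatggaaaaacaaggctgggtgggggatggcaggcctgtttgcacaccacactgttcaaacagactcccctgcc
That E-box lies in 14.4% of the 32851 RefSeq windows of this length and in 10 of the 58 windows of the members (17.2%), so its presence here is a description and not a site.

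The next members by level in the WT libraries were mostly auxiliary subunits and repolarizing channels. Kcnip1, a calcium-binding subunit of Kv4 potassium channels, ran from 13.2 to 41.4 FPKM (median 22.95, n = 5 libraries). Kcnmb2, the beta subunit that inactivates the BK channel, ran from 11.5 to 32.3 FPKM (median 17.1). Kcnk1, the two-pore-domain channel TWIK1, ran from 10.6 to 18.6 FPKM (median 13.9). The ranges of these 3 genes overlap each other, and none reaches that of Kcnk16. Kcnh2, an ERG channel that helps end the beta cell action potential, had a median of 13.6 FPKM, and its relative Kcnh6 one of 5.83. The calcium channel subunits Cacnb3 (median 12.5 FPKM) and Cacna2d1 (median 10.0 FPKM) exceeded, in each of the 5 libraries, Cacna1a (median 2.78 FPKM), the P/Q-type pore and the only member that is a calcium pore in the WT table. Other members among the 15 highest were Kcnma1, the BK pore (median 5.11 FPKM), Kcnip2 (4.39), Cacnb2 (3.95), Kcnn3, an SK calcium-activated channel (4.13), Kcnq1 (4.96) and Kcnab3 (3.42). Kcnk16 lay apart from the rest, and from Kcnip1 downwards the ranges of neighbours in this order overlapped.

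**Figure D1:**
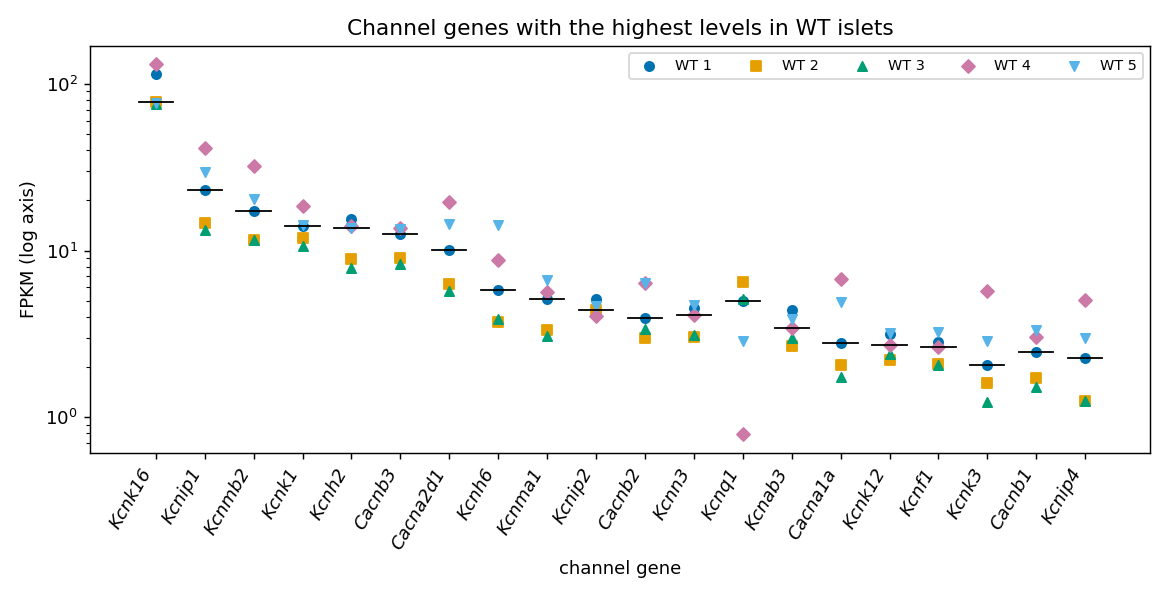
Shown are 20 channel genes with high mean log2(FPKM + 1) in the 5 WT libraries; each symbol is 1 library, the black line is the median, and the vertical axis is FPKM on a log scale. Kcnk16 lies at 75.2 to 131 FPKM, above every other channel gene, and Kcnq1 is lowest in WT replicate 4 (0.79 FPKM), the library where 17 of the 38 members are highest.

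Sodium channel pores were low. Scn9a, the Nav1.7 pore and the main sodium channel of mouse beta cells, ran from 0.84 to 4.06 FPKM in the WT libraries, Scn3a, the Nav1.3 pore, from 0.91 to 2.46 FPKM, and Scn8a, the Nav1.6 pore, from 0.52 to 2.33 FPKM. For comparison, Abcc8, the regulatory subunit of the ATP-sensitive channel, was at 71.9 to 140 FPKM and Kcnj11, its pore, at 16.6 to 31.7 FPKM, below Kcnk16 in each of the 5 libraries. Cacna1d was at 2.97 to 9.30 FPKM and Cacna1c at 0.92 to 2.74 FPKM.

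The WT libraries differed widely among themselves. The highest library exceeded the lowest by 1.28 to 15.6 times over the 38 members, with a median of 2.345 times. WT replicate 4 was highest for 17 of the 38 members and WT replicate 5 for 13, while WT replicates 2 and 3 were lowest for 15 and 17. The acinar marker share was 6.73% in WT replicate 4, 22.4% in replicate 5, 31.3% in replicate 1, 41.4% in replicate 2 and 43.0% in replicate 3, so the libraries with the lowest channel levels were those with the highest acinar share. Kcnq1, the Kv7.1 pore found in many secretory epithelia, ran the other way, at 4.96, 6.51, 5.15, 0.79 and 2.86 FPKM in WT replicates 1 to 5. Kcnab2 (0.42 FPKM) was also lowest in WT replicate 4. The part of cell makeup in these differences was not tested.

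KO_PBS against CTR_PBS compares the KO with its control, both with PBS. Lower in KO_PBS were 7 of 11 voltage-gated potassium alpha subunits, 2 of 2 inward rectifiers and 2 of 5 calcium-, sodium- or pH-gated potassium pores. On the log2(FPKM + 1) scale the EAG channel Kcnh1 had the largest fall, while Kcnq1 and its auxiliary subunit Kcne3 were higher. Of the 41 members tested, 15 were lower and 8 higher, where 20.0% of all 11789 genes were lower and 24.6% higher. Over the 38 members that the WT libraries also pass, 14 were lower (36.8%) and 7 higher (18.4%). The groups did not overlap for 16 members in the higher direction (36.7% of all genes) and 21 in the lower (36.1%). The level rule was met through 1 of the 2 groups only by 5 members, of which Kcne3 and Kcna2 were called and had to differ. Kcna2 is counted among the 7 lower voltage-gated alpha subunits. On the deposited scale, where the median gene moved by -0.44, 31 members were lower (81.5% of all genes) and 4 higher (8.66% of all genes), with a member median of -0.42.

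Among voltage-gated potassium alpha subunits, 7 of 11 were lower and 1 higher. The 7 include Kcna2, which met the level rule through CTR_PBS only and had to be lower. Kcnh1, which encodes the EAG voltage-gated channel, was at 7.84 and 7.21 FPKM in CTR_PBS and at 2.26 and 2.27 FPKM in KO_PBS (log2 change -0.98, SE 0.056, adjusted p = 3.4e-06). Kcnf1, a silent alpha subunit that works only together with other subunits, was at 5.73 and 5.48 FPKM against 2.02 and 2.24 FPKM (-0.68, adjusted p = 4.58e-05). Kcnh2 was at 20.8 and 21.0 FPKM against 9.39 and 8.88 FPKM (-0.62, adjusted p = 2.45e-05). For these 3 genes both KO_PBS libraries lay well below both CTR_PBS libraries in deposited FPKM, a scale on which 81.5% of all genes were called lower. Kcnh6, an ERG relative of Kcnh2, fell less (-0.17).

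The only one of the 11 voltage-gated alpha subunits called higher (3 were not called) was Kcnq1, at 2.88 and 3.18 FPKM in CTR_PBS and at 4.98 and 4.70 FPKM in KO_PBS (log2 change 0.97, SE 0.0663, adjusted p = 9.3e-06). The Kcnq1 locus also carries the antisense transcript Kcnq1ot1, the strand setting was not given in the sources used here, and reads of the pair cannot be told apart. Kcne3, whose product binds KCNQ1, was at 0.42 and 0.43 FPKM against 1.18 and 1.25 FPKM (0.90). Kcnn4, the intermediate-conductance calcium-activated channel of epithelial and immune cells, was at 2.09 and 1.67 FPKM against 2.32 and 2.45 FPKM (0.61). The KO_PBS libraries were the higher pair for all 3 genes, on the deposited scale as well. The sodium channel subunit Scn3b was also higher on both scales (0.49, adjusted p = 0.000279). Kcnk1 (0.23), Kcnip2 (0.18), Kcnab2 (0.26) and Scn3a (0.30) were higher after median scaling, but their direction flips on the deposited scale, where Kcnk1 (-0.27) and Kcnip2 (-0.30) passed the test as lower.

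Both inward rectifiers tested were lower. Kcnj12, the Kir2.2 pore, was at 0.94 and 0.93 FPKM in CTR_PBS and at 0.22 and 0.12 FPKM in KO_PBS (-0.60, adjusted p = 0.000331). As a ratio of deposited FPKM this fall was larger than that of Kcnh1. All of these Kcnj12 values lie under 1 FPKM, and the gene entered the test through KO_REG3B-Fc (1.18 and 1.09 FPKM). Kcnj6, the GIRK2 pore, was at 2.08 and 2.11 FPKM against 0.96 and 1.04 FPKM (-0.33, adjusted p = 0.00339). Among calcium-activated pores, Kcnma1 (8.60 and 8.05 FPKM against 4.08 and 3.90 FPKM, -0.46) and Kcnn3 (-0.34) were lower. Auxiliary subunits that fell were Kcnip1 (-0.40), Kcnmb2 (-0.17), Cacna2d1 (-0.34) and Cacnb2 (-0.25). Kcnk16 was at 152 and 154 FPKM against 99.5 and 98.3 FPKM, and after median scaling its difference did not pass the test (-0.10, SE 0.0366, adjusted p = 0.0572), whereas on the deposited scale it did (-0.62, adjusted p = 1.47e-06). Cacna1a (-0.10, adjusted p = 0.182) did not pass after median scaling but did on the deposited scale (-0.50).

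Because Kcnh1, Kcnf1 and, at levels under 1 FPKM, Kcnj12 changed in this comparison, and all 3 again in the db table, the 250 bases before a listed RefSeq start are shown for each (RefSeq, GRCm38.p6, 5′ to 3′). Kcnh1 is at chr1:192190527-192190776, plus strand, Kcnf1 at chr12:17176889-17177138, minus strand, and Kcnj12 at chr11:61065554-61065803, plus strand. The RefSeq gene spans of Kcnh1 (chr1:192189144-192510159) and Kcnj12 (chr11:61022564-61073269) begin before these windows, so both windows lie inside their gene. The Kcnj12 window lies in an intron of a longer GENCODE transcript. Capitals mark matches, on either strand, to the GC box GGGCGG (in Kcnh1) and to the MAF-type motif TGCTGA (in Kcnj12).
Kcnh1: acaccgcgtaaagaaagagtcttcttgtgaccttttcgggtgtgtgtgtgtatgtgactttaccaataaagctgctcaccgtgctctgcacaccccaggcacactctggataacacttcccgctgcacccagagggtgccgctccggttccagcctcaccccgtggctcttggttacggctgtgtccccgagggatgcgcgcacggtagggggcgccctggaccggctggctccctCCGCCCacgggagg
Kcnf1: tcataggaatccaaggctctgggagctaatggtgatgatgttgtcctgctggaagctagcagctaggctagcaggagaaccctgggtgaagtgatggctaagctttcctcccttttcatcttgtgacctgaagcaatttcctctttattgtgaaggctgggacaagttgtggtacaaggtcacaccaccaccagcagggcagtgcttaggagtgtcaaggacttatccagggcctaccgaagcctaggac
Kcnj12: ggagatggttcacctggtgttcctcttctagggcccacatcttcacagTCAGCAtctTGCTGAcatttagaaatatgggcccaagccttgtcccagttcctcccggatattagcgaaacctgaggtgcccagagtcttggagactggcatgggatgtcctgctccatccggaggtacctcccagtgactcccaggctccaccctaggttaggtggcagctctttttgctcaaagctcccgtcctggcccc
In all, 5 motifs were searched on both strands: these, the E-box above, the CRE TGACGTCA and the TATA box TATAAA. The GC box lies in 32.7% of all 32851 windows and in 26 of the members' 58 (44.8%), and the MAF-type motif in 16.1% and 13.8%. The CRE lies in 1.55% of all windows and the TATA box in 12.4%, and each in 0 of the 58. RefSeq windows were matched for 40 of the 59 members. The 3 windows share none of the 5 motifs, and no match says only that these letters are absent from these windows.

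**Figure D2:**
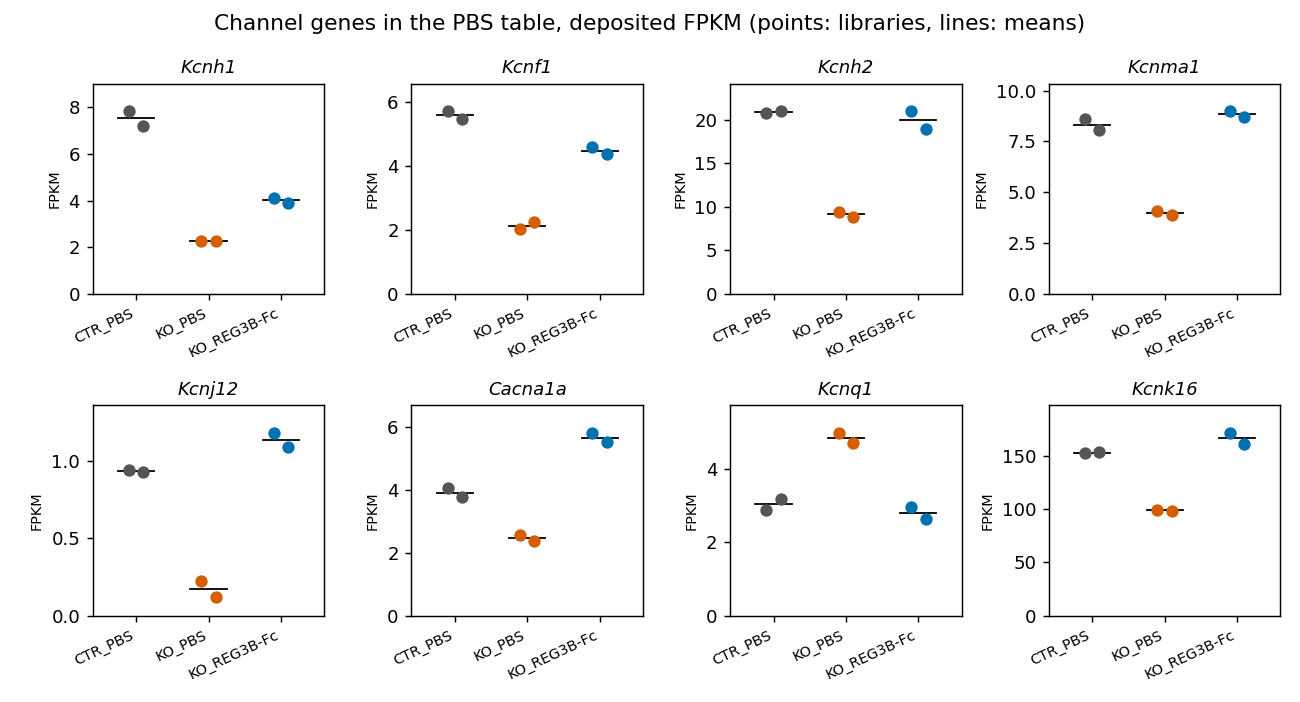
Deposited FPKM of 8 channel genes in the PBS table, with 1 point per library, the mean as a line and the vertical axis starting at 0. The 2 KO_PBS libraries are lowest for 7 of these genes and highest for Kcnq1 (4.98 and 4.70 FPKM). On this scale 81.5% of all genes were called lower in KO_PBS against CTR_PBS.

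Markers of other cells moved with these changes. The acinar share of summed FPKM was 14.9 to 15.1% in CTR_PBS and 31.1 to 32.2% in KO_PBS, with 21 of 21 acinar markers higher. Over the 5 WT libraries, which carry a single label, this share ran from 6.73 to 43.0%. All 12 immune and 6 stellate cell markers tested were higher (the 17 listed immune markers summed to 0.00901 to 0.00982% against 0.0320%, with up to 3 of them at 0 in a CTR_PBS library), 7 of 10 endothelial markers were higher after median scaling but 7 lower on the deposited scale, and 12 of 15 beta cell markers were lower (median -0.40, shares 60.5 to 61.3% against 40.2 to 41.0%). After median scaling 3 of 3 delta, 2 of 2 PP and 3 of 7 alpha cell markers were higher. On the deposited scale 7 of 7 alpha and 2 of 2 PP cell markers were lower, and of the delta cell markers 1 was higher and 1 lower. Abcc8, Kcnj11, Cacna1c and Cacna1d were all lower, with Kcnj11 at 44.5 and 44.6 FPKM against 25.5 and 24.8 FPKM. The part of cell makeup in the channel changes was not tested. Of 27 other channels and channel regulators, 3 were higher and 10 lower, among them the TRP channel Trpm5 (7.92 and 7.57 FPKM against 2.65 and 2.67 FPKM, -0.84) and the calcium channel inhibitor Gem (-0.62) lower, and Dpp6, an auxiliary subunit of Kv4 (0.60), and Trpm2 (0.60) higher. The authors' deposited table called 16 members lower (16.0% of all genes) and 5 higher (15.4%). Leaving out single libraries ended the calls of Kcnab2, Kcnh6, Kcnip2 and Kcnmb2 at least once (highest adjusted p 0.124, 0.0765, 0.125 and 0.195). CTR_PBS replicate 1 did so for each of these 4 (log2 change without it 0.28, -0.16, 0.15 and -0.12). CTR_PBS replicate 2 did so for Kcnab2 (0.23), Kcnh6 (-0.17) and Kcnip2 (0.20), KO_PBS replicate 1 for Kcnab2 (0.17), Kcnip2 (0.13) and Kcnmb2 (-0.18), and KO_PBS replicate 2 for Kcnh6 (-0.15) and Kcnmb2 (-0.15).

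KO_REG3B-Fc against KO_PBS compares REG3B-Fc with PBS in the KO, and it shares the 2 KO_PBS libraries with the comparison above, so values are set side by side and no overlap is read. With REG3B-Fc, 7 of 11 voltage-gated potassium alpha subunits, 4 of 5 calcium channel auxiliary subunits and the calcium pore Cacna1a were higher, while Kcnq1 and Kcnn4 were lower. Of 8 potassium auxiliary subunits 2 were higher and 3 lower. Of the 41 members, 22 were higher and 7 lower, where 20.2% of all genes were higher and 24.7% lower. Over the 38 members that the WT libraries pass, 20 were higher (52.6%) and 6 lower (15.8%). The groups did not overlap for 27 members in the higher direction (36.3% of all genes) and 7 in the lower (36.3%). The level rule was met through 1 of the 2 groups only by 10 of the 41, of which 6 were called and had to differ. Among these were Kcne3, which was lower, and Kcna2, Kcnj12, Scn8a and Cacng4, which were higher. Kcna2 is counted among the 7 higher voltage-gated alpha subunits. On the deposited scale the median gene moved by 0.53, and 35 members were higher (86.2% of all genes) and 3 lower (6.97% of all genes). The members' median change was 0.21 after median scaling, beside 0.00 for all genes, and 0.65 beside 0.53 on the deposited scale.

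Kcnh2 was at 9.39 and 8.88 FPKM in KO_PBS and at 21.0 and 19.0 FPKM in KO_REG3B-Fc (log2 change 0.46, SE 0.0504, adjusted p = 0.000152). With REG3B-Fc, Kcnma1 was at 8.99 and 8.70 FPKM (0.44) and Kcnj12 at 1.18 and 1.09 FPKM (0.68, passing the level rule with REG3B-Fc only). In these 3 genes every KO_REG3B-Fc library lay above both KO_PBS libraries in deposited FPKM, a scale on which 86.2% of all genes were called higher. The two-pore-domain channel Kcnk3, or TASK1, was at 1.33 and 1.20 FPKM in KO_PBS and at 3.49 and 3.31 FPKM in KO_REG3B-Fc (0.54, adjusted p = 0.000171). Kcnh1 was at 4.12 and 3.89 FPKM with REG3B-Fc and did not pass after median scaling (0.14, adjusted p = 0.0683), though it did on the deposited scale (0.62).

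Calcium channel subunits were largely higher. Cacna1a was at 2.58 and 2.37 FPKM in KO_PBS and at 5.82 and 5.52 FPKM in KO_REG3B-Fc (0.45, adjusted p = 0.00038). Of 5 auxiliary subunits, 4 were higher, including Cacna2d1 (5.99 and 5.99 FPKM against 12.9 and 12.9 FPKM, 0.43), Cacnb1 (0.45) and Cacnb2 (0.21), while Cacnb3 (0.06) was not called. Cacng4, also among these 4, met the level rule with REG3B-Fc only and had to be higher. Among sodium pores Scn9a (0.20) and Scn8a (0.28) were higher and Scn3a (-0.01, adjusted p = 0.93) was not called. Of the KO_PBS and KO_REG3B-Fc groups, Scn8a met the level rule with REG3B-Fc only. All 4 triggering genes, Abcc8, Kcnj11, Cacna1c and Cacna1d, were higher.

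Kcnq1 was at 2.97 and 2.62 FPKM with REG3B-Fc (log2 change -1.13, SE 0.0663, adjusted p = 4.12e-06), Kcnn4 at 1.99 and 1.90 FPKM (-0.64) and Kcne3 at 0.97 and 0.74 FPKM (-0.59), and these 3 were lower on both scales. Kcne3 met the level rule through KO_PBS only and so had to be lower. Kcnip2 (-0.54), Kcnk1 (-0.27) and Kcnab2 (-0.24) were lower after median scaling only, and each was above 0 on the deposited scale, where Kcnk1 passed the test as higher (0.32). The acinar share was 12.7 to 12.9% in KO_REG3B-Fc, with 21 of 21 acinar, 12 of 12 immune and 6 of 6 stellate cell markers lower than in KO_PBS and 12 of 15 beta cell, 6 of 7 alpha cell and 2 of 2 PP cell markers higher. The part of cell makeup in these changes was not tested. Of 27 other channels, 11 were higher and 3 lower, with Trpm5 at 9.85 and 9.50 FPKM. The authors' deposited table called 20 members higher (14.3% of all genes) and 4 lower (15.5%). Calls of Cacnb2, Kcnab2, Kcnip3, Kcnj6, Kcnk16, Scn8a and Scn9a were each lost without at least 1 library (highest adjusted p 0.0659, 0.136, 0.0645, 0.0912, 0.163, 0.0621 and 0.113). For Cacnb2 that library was KO_REG3B-Fc replicate 1 (0.19 without it) and for Scn8a it was KO_REG3B-Fc replicate 2 (0.26 without it). Kcnab2 and Kcnj6 lost it without KO_PBS replicate 1 (-0.16 and 0.20) and without either KO_REG3B-Fc replicate, Scn9a without KO_PBS replicate 2 (0.19) and without either KO_REG3B-Fc replicate, and Kcnip3 without KO_PBS replicate 2 (0.23) or KO_REG3B-Fc replicate 2 (0.31). Kcnk16 (0.11, adjusted p = 0.0332) kept its call only without KO_REG3B-Fc replicate 2.

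**Figure D3:**
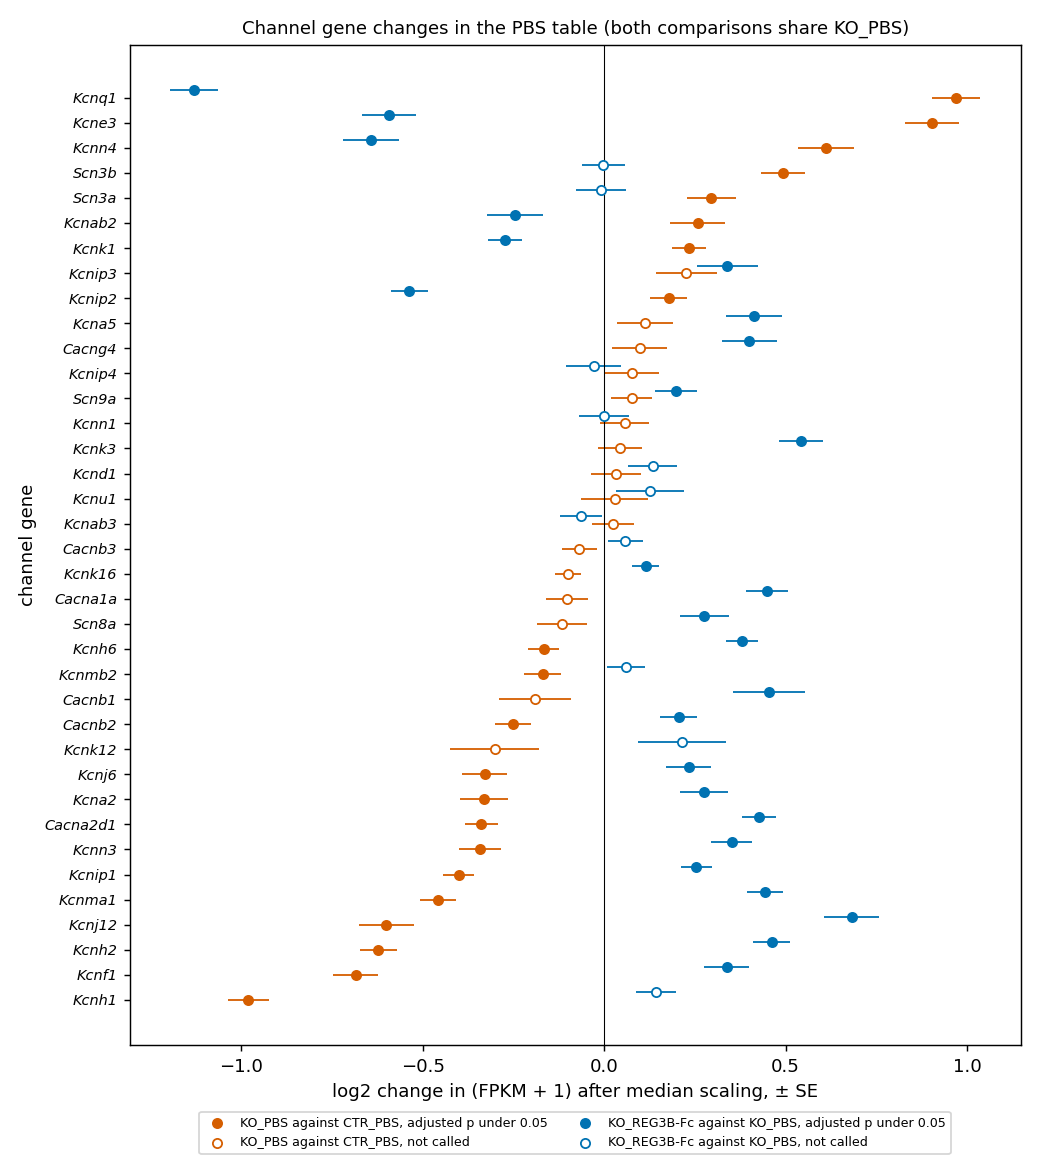
Log2 changes of FPKM + 1 after median scaling, with SE, for 37 channel genes of the PBS table, ordered by KO_PBS against CTR_PBS (orange) and with KO_REG3B-Fc against KO_PBS (blue) beside it; filled points passed the threshold. Both comparisons contain the KO_PBS libraries, and Kcnh1 (-0.98) and Kcnq1 (0.97) mark the ends of the order.

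KO_REG3B-Fc against CTR_PBS sets the REG3B-Fc libraries of the KO beside the control, with the libraries of both groups already used above. Most members did not pass: 10 of 41 were higher and 3 lower, where 5.47% of all genes were higher and 5.30% lower. Over the 38 members that the WT libraries pass, 8 were higher (21.1%) and 3 lower (7.89%). The groups did not overlap for 17 in the higher direction (28.5% of all genes) and 12 in the lower (29.2%). On the deposited scale 15 were higher (16.8% of all genes) and 3 lower (2.87% of all genes). The level rule was met through KO_REG3B-Fc only by 3 members, of which Cacng4 was called and had to be higher. Without any 1 of the 4 libraries compared the number higher was 5 or 6. It was 6 without CTR_PBS replicate 1, 5 without CTR_PBS replicate 2, 5 without KO_REG3B-Fc replicate 1 and 6 without KO_REG3B-Fc replicate 2.

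Kcnh1 remained the furthest below control, at 4.12 and 3.89 FPKM with REG3B-Fc against 7.84 and 7.21 FPKM (log2 change -0.84, SE 0.056, adjusted p = 8.15e-05). Kcnip2, a calcium-binding Kv4 subunit, was at 9.01 and 8.92 FPKM against 10.9 and 11.1 FPKM (-0.36, adjusted p = 0.00364). Kcnf1 was lower as well (-0.35, adjusted p = 0.0104), a call lost without any 1 of the 4 libraries. The higher members that passed without each library in turn included Kcnk3 (3.49 and 3.31 FPKM against 1.74 and 1.73 FPKM, 0.59, adjusted p = 0.000817), Kcnip3, a Kv4 subunit also known as the transcriptional repressor DREAM (2.18 and 2.23 FPKM against 1.10 and 0.96 FPKM, 0.57), and Scn3b (2.62 and 2.49 FPKM against 1.44 and 1.31 FPKM, 0.49).

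Kcnk16 (0.02, adjusted p = 0.831) was not called against control, which does not show that its levels were equal. Cacna1a (0.35), Scn3a (0.29), Scn9a (0.27), Kcnh6 (0.21) and Kcne3 (0.31) were higher, but each call was lost without at least 2 of the 4 libraries in turn (highest adjusted p 0.0711, 0.165, 0.128, 0.117 and 0.187). Cacna1a lost it without CTR_PBS replicate 2 (0.31) and without KO_REG3B-Fc replicate 1 (0.33), and the other 4 genes without each of the 4. Markers of the other hormone cells moved with this comparison: 6 of 7 alpha, 3 of 3 delta and 2 of 2 PP cell markers were higher, the alpha marker share being 1.07 to 1.11% against 0.520 to 0.535% in CTR_PBS, while 17 of 21 acinar markers were lower. Their part in the channel changes was not tested. Of 27 other channels 5 were higher and 2 lower, with the calcium release channel Itpr1 at 7.55 and 7.53 FPKM against 3.88 and 3.76 FPKM, and none of the 4 triggering genes was called by limma after median scaling, while Abcc8 (0.21, adjusted p = 0.00913) and Cacna1d (0.26, adjusted p = 0.0402) were higher on the deposited scale.

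db_REG3B against db_GFP compares REG3B with GFP in db islets and shares no library with the PBS table. In the libraries labelled db_REG3B, Kcnf1, Kcnj12 and Kcnh1 were the members that rose most. T-type calcium channel pores, the sodium channel subunit Scn3b and 4 of 6 inward rectifiers fell. The T-type pores and these 4 rectifiers passed the level rule in the db table only. Of 57 members, 11 were higher and 27 lower, where 20.7% of all 12507 genes were higher and 25.6% lower. Over the 38 members that the WT libraries pass, 11 were higher (28.9%) and 14 lower (36.8%), and of the other 19 members 13 were lower (68.4%) and 0 higher. Of these, 5 (Kcnj3, Kcns3, Kcnmb4, Cacng4 and Cacna2d4) and the WT member Kcnq1 passed the level rule through db_GFP only and had to fall. On the deposited scale 10 were higher (12.2% of all genes) and 29 lower (30.8% of all genes). The groups did not overlap for 16 in the higher direction (36.8% of all genes) and 33 in the lower (37.1%). The authors' deposited table called 10 higher (16.5% of all genes) and 18 lower (17.8%).

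Kcnf1 was at 1.22 and 1.28 FPKM in db_GFP and at 5.41 and 6.63 FPKM in db_REG3B (log2 change 1.69, SE 0.0949, adjusted p = 6.41e-06). Kcnj12 was at 1.53 and 1.29 FPKM against 4.24 and 4.70 FPKM with REG3B (1.23, SE 0.0891, adjusted p = 2.41e-05). Kcnh1 was at 9.04 and 9.40 FPKM against 15.2 and 16.9 FPKM (0.80, adjusted p = 3.56e-05). In all 3 genes, whose upstream windows are printed above, both db_REG3B libraries exceeded both db_GFP libraries. The Kv4 subunits Kcnip4 (0.67) and Kcnip1 (50.6 and 50.7 FPKM against 68.3 and 67.0 FPKM, 0.48) and the cytoplasmic subunit Kcnab3 (0.52) were higher, as was the SK channel Kcnn3 (0.36). Kcnd1 and Kcnma1 were higher as well (0.37 and 0.29).

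Of 4 calcium channel pores, both T-type pores were lower. Cacna1g was at 3.76 and 3.37 FPKM in db_GFP and at 1.20 and 1.26 FPKM in db_REG3B (-0.98, SE 0.0873, adjusted p = 7.09e-05), and Cacna1h at 1.79 and 1.80 FPKM against 0.92 and 1.14 FPKM (-0.42). The P/Q-type pore Cacna1a (0.10, adjusted p = 0.328) was not called. Of 8 auxiliary subunits 5 were lower, including Cacnb3 (53.3 and 50.9 FPKM against 35.4 and 38.0 FPKM, -0.42) and Cacng7 (-0.60), while Cacna2d2 (-0.15, adjusted p = 0.196) was not called. Cacng4 and Cacna2d4, also among these 5, passed the level rule through db_GFP only and had to fall. Sodium pores were not called in 3 of 3 cases, while the auxiliary subunit Scn3b fell from 3.50 and 3.72 FPKM to 2.07 and 2.39 FPKM (-0.46).

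Of 5 two-pore-domain channels 4 were lower. Kcnk16 was at 117 and 112 FPKM in db_GFP and at 91.4 and 93.9 FPKM in db_REG3B (-0.23, SE 0.0376, adjusted p = 0.00178), and Kcnk3 at 15.2 and 14.8 FPKM against 9.04 and 9.12 FPKM (-0.60). Of 6 inward rectifiers 4 were lower and only Kcnj12 higher. The lower ones were Kcnj2, Kcnj3, Kcnj4 and Kcnj8, which passed the level rule in the db table only, and Kcnj3 had to fall. Kcnj8, the pore of the vascular ATP-sensitive channel, was at 4.57 and 4.98 FPKM against 2.90 and 2.70 FPKM (-0.55). The calcium-activated channel Kcnn4 was at 4.40 and 3.92 FPKM against 1.26 and 1.61 FPKM (-1.04). Kcnip3 (-0.74) and Kcne3 (-0.72) were lower too. So were Kcnq1 (1.90 and 2.13 FPKM against 0.61 and 0.56 FPKM, -0.89), the silent subunit Kcns3 (-0.89) and the BK subunit Kcnmb4 (-0.83). Kcnq1, Kcns3 and Kcnmb4 passed the level rule through db_GFP only and had to fall. Kcnh2 (-0.17) and Kcnh6 (-0.22) fell slightly. Kcnk6 (-0.18, adjusted p = 0.144) and Kcnj6 (-0.20, adjusted p = 0.0948) were not called.

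**Figure D4:**
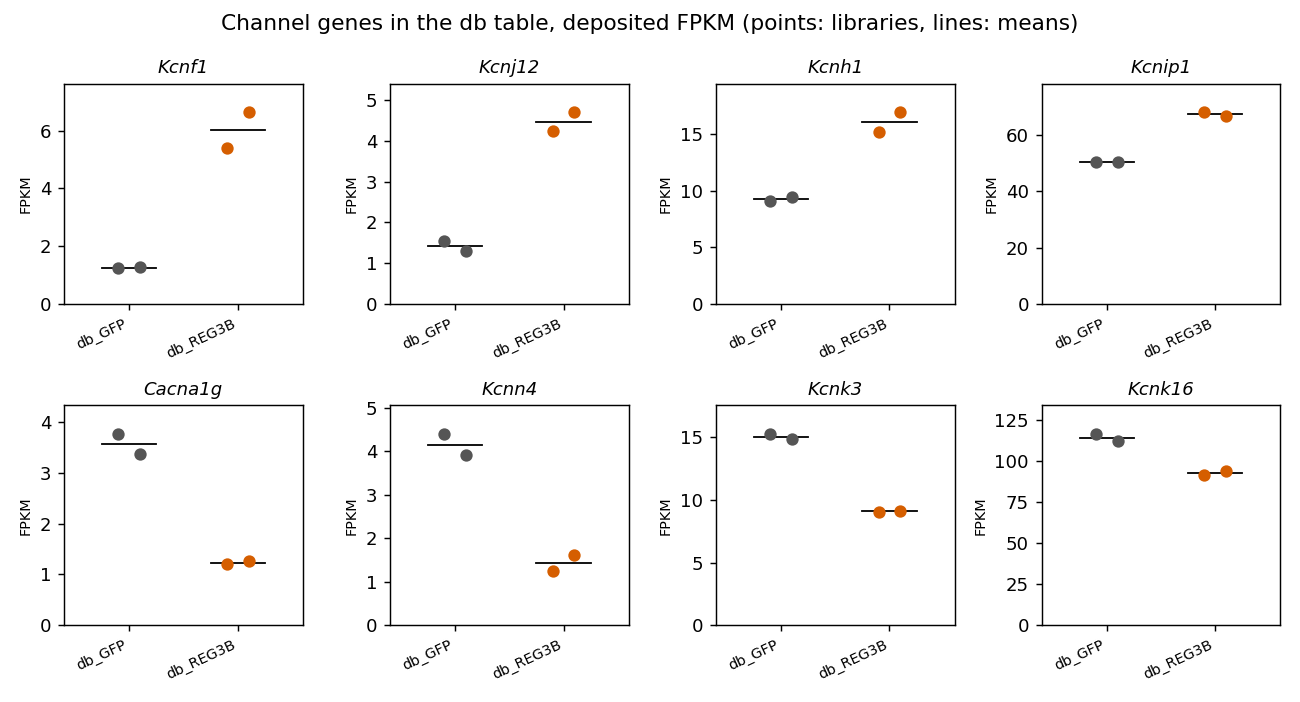
Deposited FPKM of 8 channel genes in the db table, with 1 point per library, the mean as a line and the vertical axis starting at 0. The db_REG3B libraries are the higher pair for Kcnf1, Kcnj12, Kcnh1 and Kcnip1 and the lower pair for Cacna1g, Kcnn4, Kcnk3 and Kcnk16.

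Markers of several cell types moved with these changes. Of 15 beta cell markers 12 were higher in db_REG3B (shares 40.7 to 40.8% in db_GFP and 59.6 to 59.8% in db_REG3B). Lower were 7 of 7 alpha, 2 of 2 PP, 9 of 9 endothelial, 7 of 9 pericyte and smooth muscle, 8 of 8 stellate, 9 of 10 immune and 4 of 5 duct cell markers. The alpha share was 4.48 to 4.52% against 1.88 to 1.91%, and 7 of 7 alpha markers were above 0 in every db library. The part of cell makeup in the channel changes was not tested. Abcc8, Kcnj11, Cacna1c and Cacna1d were higher by limma after median scaling, 3 of the 4 also on the deposited scale, with Kcnj11 at 49.8 and 51.4 FPKM against 55.6 and 57.5 FPKM. Of 28 other channels 9 were higher, Trpm5 the most (6.90 and 7.55 FPKM against 24.5 and 22.9 FPKM, 1.65), and 6 lower, the chloride channel Ano1 the most (7.42 and 7.47 FPKM against 2.44 and 2.36 FPKM, -1.25). The calls of Cacna2d1, Kcnd1, Kcnh2, Kcnh6, Kcnk1, Kcnma1 and Kcnmb2 were lost without at least 1 library (highest adjusted p 0.157, 0.148, 0.13, 0.0511, 0.274, 0.0755 and 0.0723). Without db_GFP replicate 1 this held for Kcnh2 (-0.15), Kcnh6 (-0.22), Kcnk1 (-0.11) and Kcnmb2 (-0.18), and without db_GFP replicate 2 for Cacna2d1 (-0.14), Kcnd1 (0.26), Kcnk1 (-0.20) and Kcnma1 (0.22). Without db_REG3B replicate 1 it held for Kcnh2 (-0.15), Cacna2d1 (-0.15) and Kcnk1 (-0.17), and without db_REG3B replicate 2 for Kcnd1 (0.26) and Kcnk1 (-0.13).

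**Figure D5:**
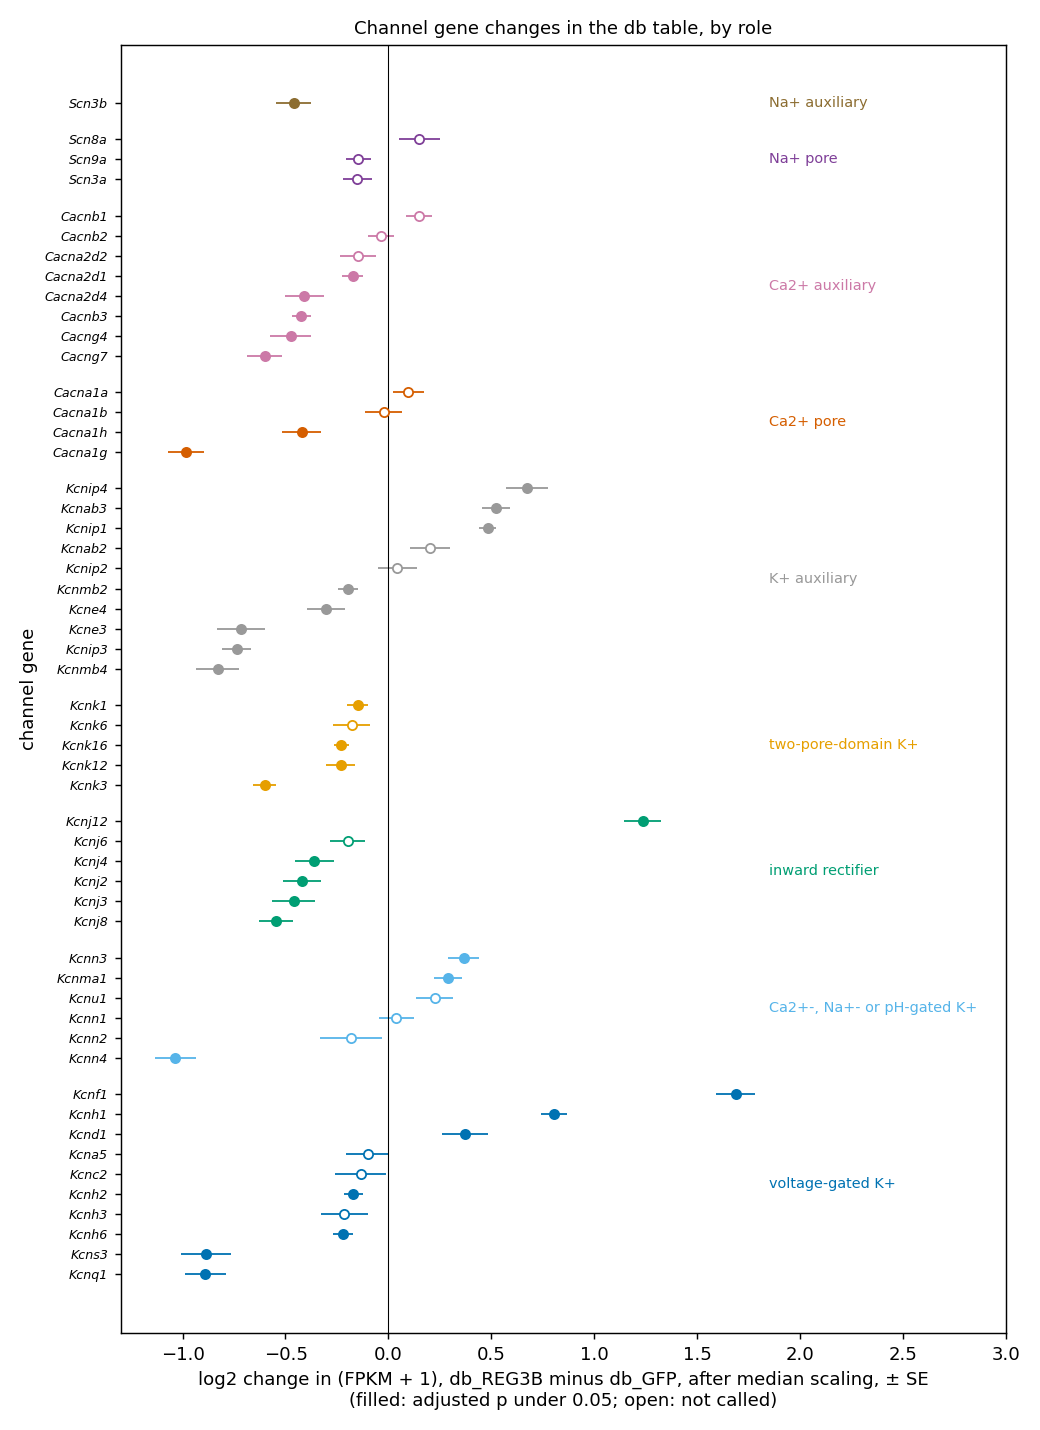
Log2 change of FPKM + 1 in db_REG3B against db_GFP after median scaling, with SE, for 53 channel genes of the db table by role; filled points passed the threshold. Kcnf1 (1.69), Kcnj12 (1.23) and Kcnh1 (0.80) lie furthest to the right, and Kcnn4 (-1.04) furthest to the left.

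The KO and db comparisons share no library, and 40 members were tested in both, among 11452 genes tested in both. Lower in KO_PBS and higher in db_REG3B were 7 members (17.5%, beside 8.43% of all genes), among them Kcnf1, Kcnh1, Kcnip1, Kcnj12, Kcnma1 and Kcnn3. Kcnj12 lay under 1 FPKM in every KO_PBS and CTR_PBS library. Higher in KO_PBS and lower in db_REG3B were 5 (12.5%, beside 12.0% of all genes): Kcne3, Kcnk1, Kcnn4, Kcnq1 and Scn3b. Of these 5, Kcnk1 flips on the deposited scale in KO_PBS, Kcne3 met the level rule through KO_PBS only and so had to be higher there, and Kcnq1 met it through db_GFP only and so had to be lower there. Lower in both were 4 members (10.0%, beside 1.74% of all genes), Cacna2d1, Kcnh2, Kcnh6 and Kcnmb2, and 0 were higher in both (3.00% of all genes). Each of these 4 loses its call in the db table without at least 1 library (adjusted p up to 0.157, 0.13, 0.0511 and 0.0723), and Kcnh6 and Kcnmb2 also lose it in KO_PBS (up to 0.0765 and 0.195). These are the counts of 2 sets of calls and were not tested against each other. In both comparisons the beta cell marker list moved the same way as the first 7 genes, 12 of 15 markers lower in KO_PBS and 12 of 15 higher in db_REG3B, and that part was not tested.

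In the HFD table, 0 of 45 members passed the test in the libraries labelled BcBKO against flox/flox, where 0.00865% of all 11560 genes were higher and 0% lower by limma. At an unadjusted p under 0.05 there were 4 members, and 295 genes in all. The authors' deposited table called 1 member, Scn3a, higher and 0 lower, where 0.112% of genes were higher and 0.0519% lower (log2 change 0.68, adjusted p = 0.0176 in that table). Scn3a, the Nav1.3 pore, was at 3.35 and 2.94 FPKM in flox/flox and at 6.07 and 5.87 FPKM in the libraries labelled BcBKO (log2 change 0.68, SE 0.119, limma adjusted p = 1.00). Scn3b, an auxiliary sodium channel subunit, was at 2.21 and 1.88 FPKM against 4.03 and 3.50 FPKM (0.58, SE 0.135). After median scaling the groups of both genes did not overlap, as was so on that scale for 10 members in the higher direction (13.7% of all genes) and 5 in the lower (13.8%). Kcnab3 (7.79 and 8.30 FPKM against 10.6 and 11.7 FPKM, 0.34) and Kcnn2, an SK channel (0.57 and 0.54 FPKM against 1.16 and 1.17 FPKM, 0.44, passing the level rule in BcBKO only), were the other 2 of the 4. Kcnk16 was at 280 and 247 FPKM in flox/flox and at 261 and 273 FPKM in BcBKO, which overlap. The acinar share was 2.45 and 8.89% in the flox/flox libraries and 3.68 to 3.73% in BcBKO.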

How the data were processed

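Islet messenger RNA of 19 libraries in 8 groups was analysed, and the chow samples of the flox/flox and BcBKO groups, 3 each, were not analysed here. The authors deposited FPKM for each library, per the file headers, together with their own log2 fold changes and adjusted p-values for 4 comparisons. The build was GRCm38.p6, per the submitters' processing notes, and the aligner and counting program were not given in the sources used here. FPKM carry no counts, so depth and counting error are unknown and the number of libraries limits the precision.

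The authors also deposited TPM for the HFD table, per the file headers, which were not used.

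A gene entered a table's fit if 2 or more libraries reached 1 FPKM. Libraries were brought to a common median against the average library, log2(FPKM + 1) was taken, and limma 3.58.1 (R 4.3.3) was run once per table on every group, with a mean-variance trend. Tests were two-sided, p-values were adjusted by Benjamini-Hochberg across the fitted genes, and the threshold was 0.05. The fits left 2 residual degrees of freedom, or 3 for the PBS table. A log2 change on this scale understates the change of low genes. The procedure was tested on simulated data. Alternatives were the deposited scale, no filter, a pseudocount of 0.1, leaving out each library, a block for the replicate number, and fits on 2 groups at a time. In the WT table, 50 repeated identifiers were left out after their first line.

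The members, marker lists and named genes were chosen with earlier results of these data known. Named were a set list of channels known from islets, the 15 highest members in WT, and in each comparison up to 8 higher and 8 lower called members with the largest change and a mean of at least 2 FPKM in the higher group, filled to 4 by the smallest p. Promoter windows came from RefSeq. Some members stay in the fits and counts but are not reported here by name.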

Additional observations from a re-analysis of the deposited data

Results flagged for a closer look

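For Kcnu1 and Kcnip3 in the WT table, 1 of the 5 libraries lay far from the other 4, by Dixon's test at the 95% level. Chance alone does so in about 1 of 20 groups, and 38 members were looked at. Kcnu1, the pH-gated potassium channel of sperm, was at 4.98 FPKM in WT replicate 4, while the next highest library was at 1.31 FPKM and the lowest at 0.32 FPKM. Kcnip3 was at 3.46 FPKM in the same library, with the next at 1.39 FPKM. WT replicate 4 had the lowest acinar marker share (6.73%) and the highest beta cell marker share (64.8%) of the 5 libraries, and the part of cell makeup in these values was not tested.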

How the results depend on the processing

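The counts of members called depended most on the scale in the PBS table. On the deposited scale, KO_PBS against CTR_PBS gave 4 higher and 31 lower in place of 8 and 15, and KO_REG3B-Fc against KO_PBS 35 higher and 3 lower in place of 22 and 7. Of all calls over all genes, the share higher went from 55.2% with median scaling to 9.61% without it in the first comparison, from 44.9 to 92.5% in the second, from 50.8 to 85.4% for KO_REG3B-Fc against CTR_PBS, and from 44.7 to 28.4% for db_REG3B against db_GFP. On the deposited scale the direction turned for Kcnd1 (-0.20), Kcnk3 (-0.27), Kcnab2 (-0.0354), Scn9a (-0.28), Scn3a (-0.0806), Kcnk1 (-0.27), Kcnip2 (-0.30), Kcnab3 (-0.42) and Kcnip4 (-0.28) in KO_PBS against CTR_PBS. It turned for Kcnab2 (0.11), Scn3a (0.45), Scn3b (0.42), Kcnk1 (0.32), Kcnip2 (0.0341), Kcnab3 (0.47) and Kcnip4 (0.40) in KO_REG3B-Fc against KO_PBS. With no filter on low values, 25 members were higher in KO_PBS, and KO_REG3B-Fc against KO_PBS gave 35 higher and 21 lower, since more genes were then tested. Without that filter calls were lost by Kcnab2 (adjusted p = 0.0625) and Kcnip2 (0.071) in KO_PBS, Kcnab2 (0.0679) in KO_REG3B-Fc against KO_PBS, Scn3a (0.112) and Kcne3 (0.0749) in KO_REG3B-Fc against CTR_PBS, and Kcnd1 (0.0726), Cacna2d1 (0.0594) and Kcnk1 (0.108) in db_REG3B. Kcnd1 lost its call in db_REG3B on the deposited scale (0.0513), and Kcnk16 its call in KO_REG3B-Fc against KO_PBS in a fit on these 2 groups alone (0.0631). Leaving out each library in turn gave 5 to 10 higher in KO_REG3B-Fc against CTR_PBS, 6 to 9 higher and 12 to 15 lower in KO_PBS, 18 to 21 higher and 6 to 7 lower in KO_REG3B-Fc against KO_PBS, and 9 to 11 higher and 18 to 24 lower in db_REG3B. With 1 library left in a group its spread was taken from the other groups. Asking for at least 1 FPKM in all 5 WT libraries left 24 of the 38 WT members. Replicate numbers had 2 pairs per comparison and nothing in the labels ties the samples, so they share only a number: same-numbered replicate differences correlated over genes at 0.670 in the HFD table and at -0.0507 to 0.0469 in the others. With a block for the replicate number, 8 members were higher and 16 lower in KO_PBS, 22 and 7 in KO_REG3B-Fc against KO_PBS, 9 and 3 against CTR_PBS (Kcne3 lost its call, adjusted p = 0.0605), 11 and 27 in db_REG3B, and 0 and 0 in the HFD table. Members near 1 FPKM have changes that the pseudocount shrinks, and with 2 libraries per group a difference that misses the threshold does not show that levels were alike.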
